A study of Canis lupus familiaris with 124 samples.

Results

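Transcripts of 90 of the 32183 listed genes were found at 10 or more CPM (counts per 1000000 counted) in the canine cell line TCC1506 and below 1 CPM in each of the 7 other cell lines. For this rule, expected counts were summed over the lanes and libraries of a cell line and divided by their total. The genes PGR, TGM1 and TP63 were left out. A further line of the study, Adcarc1258, had been sequenced for earlier work and was not examined here. Since the rule was applied to the levels in the cell lines, the difference between TCC1506 and the other lines is described here without a test. TCC1506 (TihoDUrtTCC1506) was established from B7, a bladder transitional cell carcinoma (TCC) of patient 7, a female Labrador Retriever aged 10 years. Its 3 libraries came from passages 98 (replicate 1), 106 (replicate 2) and 107 (replicate 3).

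The 7 other lines had been derived from prostate cancer of male dogs and were grown in the same medium with 10% fetal calf serum. Adcarc0846 (patient 2, aged 6 years), Adcarc1508 (patient 3, aged 11 years, neutered) and Adcarc1511.1 (patient 4, aged 6 years, neutered) came from prostate adenocarcinoma (PAC). Metadcarc1511.2 and Metadcarc1511.3 came from PAC metastases of patient 4, while TCC0840 (patient 5, aged 10 years, neutered) and TCC1509 (patient 6, aged 9 years, neutered) came from TCC. TCC1506 was thus the only line from the bladder, from a female dog and from patient 7, and these properties cannot be told apart. Passage also differed, with the other lines between passage 68 in Metadcarc1511.2 and passage 448 in Adcarc0846. The tissues, with 1 library each, were B7, the bladder TCC samples B8, B9 and B10 of female dogs aged 11, 8 (neutered) and 8 years, the TCC P6.1 and its metastasis Ln6.2 of patient 6, the PAC P2 of patient 2, and 2 lymph node metastases of PAC from patient 4, Ln4.2 and Ln4.3. RNA of cells and RNA of tissues had been isolated with different kits, so that kit and sample kind cannot be told apart.

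A cell line descends from the cells of 1 tumor and can change in culture, whereas a tumor tissue also holds stroma, vessels and leukocytes. A transcript of a cancer cell line may therefore also be found in a tissue in which other cells make it. Of the 90 members, 7 could be paired with a symbol. MUC13 is a membrane mucin of epithelial surfaces, GPC4 is a heparan sulfate proteoglycan anchored to the cell surface, and COL1A1 and COL5A3 are chains of the fibrillar collagens of type I and type V. BCL11A is a zinc finger repressor of transcription best known from the silencing of fetal hemoglobin, RAB7B is a small GTPase of late endosomes and lysosomes, and FEZ1 is a kinesin adaptor known from axon growth. The other 83 members are listed by their Ensembl identifier only.

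The libraries of TCC1506 held between 16945644 and 19231692 expected counts, B7 held 15594067, and the other tissues held between 11920463 and 18086895. A total of 3 counts corresponded to 0.192 CPM in B7. Markers of the sample kinds fitted the labels in part. Marker genes could be looked up only where their symbol was paired with an identifier, and the others on each list were not looked up here. All 17 paired genes of the 90 on a list for squamous and basal epithelium reached 1 CPM in TCC1506, and 14 reached 10 CPM. KRT80, a gene of this list, had 161.7 CPM in TCC1506 and 170 CPM in the lowest other line, so that every other line was higher. DLX3 had 18.7 CPM in TCC1506 and 0.0202 CPM in the lowest other line. EPCAM, an epithelial adhesion molecule counted below with the urothelial list, had 144.8 CPM in TCC1506 and 879 CPM in the highest other line. Of the 28 leukocyte genes 17 were paired, of which 16 were below 1 CPM in TCC1506 and only CD74 was higher, at 67.5 CPM. Of the 26 genes on a urothelial list 8 were paired, namely CLDN7, EPCAM, OCLN, MAL2, TMPRSS2, F11R, PKP2 and PSCA. Of these, 7 reached 1 CPM and 6 reached 10 CPM in TCC1506, and PSCA was below 1 CPM. No uroplakin was among the paired genes, and the study counts PSCA as a prostate marker. Urothelial identity was therefore not assessed by them.

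The members reached between 10.4 and 1062 CPM in TCC1506, with a median of 25.4 CPM. There were 55 members at 20 CPM or more and 19 members at 100 CPM or more. Together they summed to 7971 CPM in TCC1506 and to between 5.84 and 8.34 CPM in the other lines. The highest of the other 7 lines had a median of 0.116 CPM over the members. In 41 members it stayed below 0.1 CPM, and in 18 members it reached 0.5 CPM or more. In single libraries of the other lines, 7 members reached 1 CPM or more, at most 2.00 CPM. The members just inside the upper limit had 10.4, 11.0 and 11.0 CPM in TCC1506, and the genes just outside it had 9.85, 9.79 and 9.55 CPM. At the lower limit, the highest other line was at 0.943, 0.896 and 0.838 CPM for the members just inside and at 1.01, 1.01 and 1.03 CPM for the genes just outside. The same rule, with the same genes left out, gave 20 genes for TCC1509, 13 for Adcarc0846, 10 for TCC0840 and between 0 and 5 for the others. Adcarc1511.1, Metadcarc1511.2 and Metadcarc1511.3 come from the same dog, which limits what the rule can give for them.

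**Figure D1:**
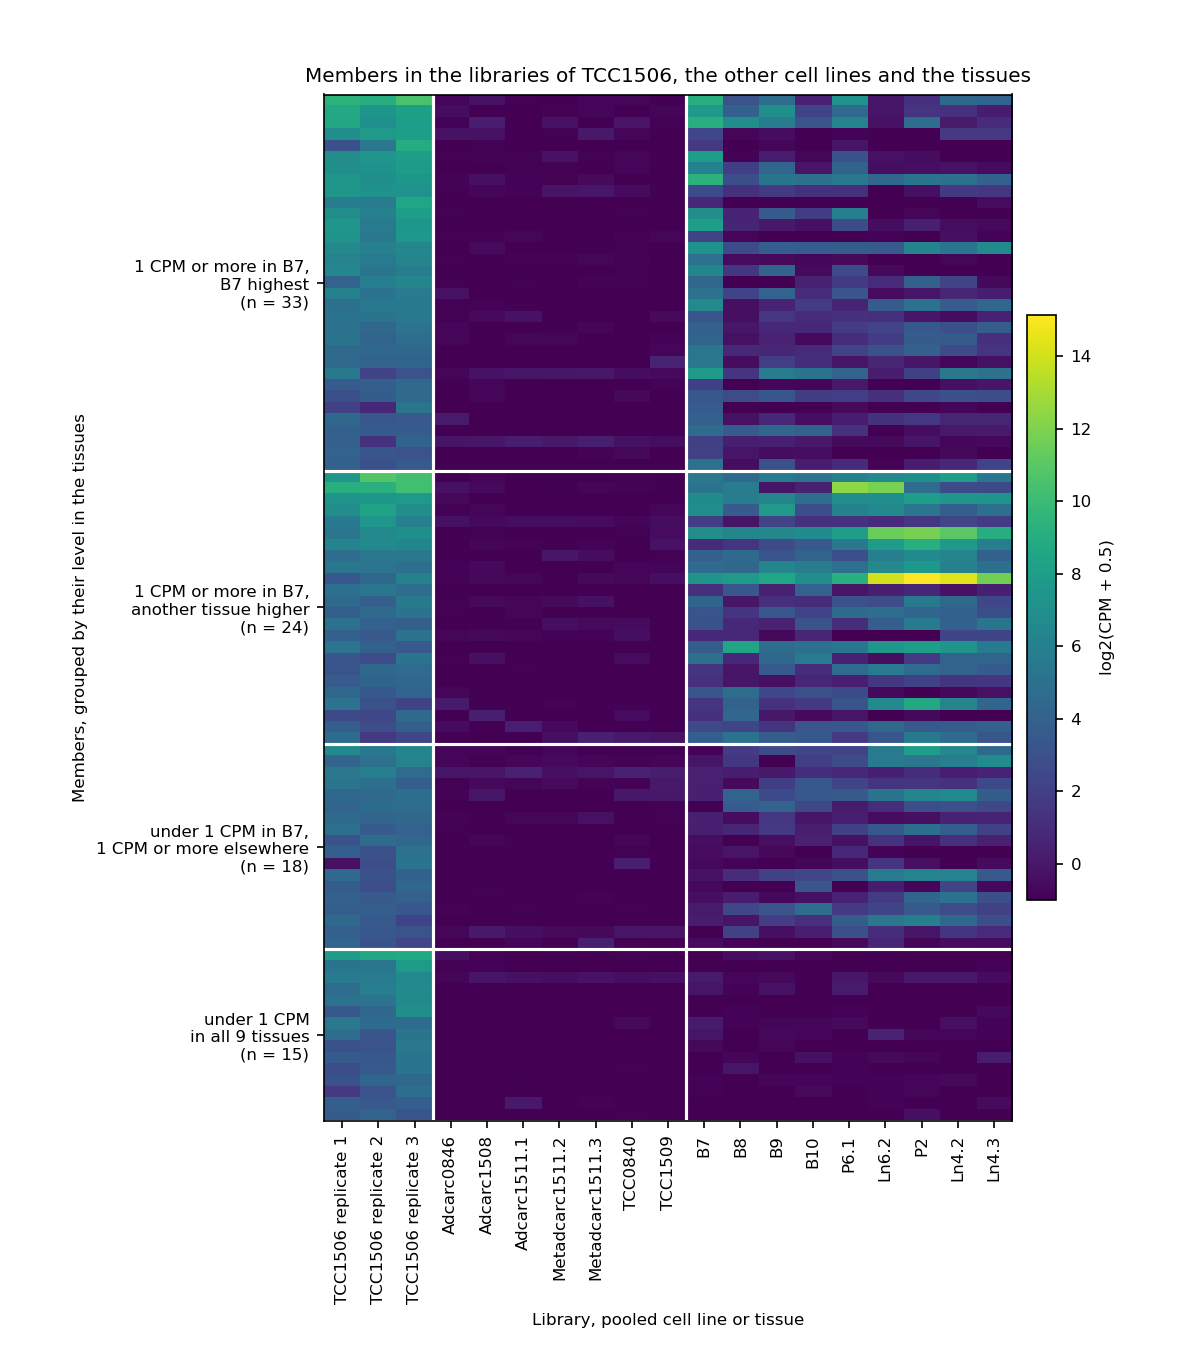
Heat map of log2(CPM + 0.5) of the 90 members (one row per member) in the 3 libraries of TCC1506, the 7 other pooled cell lines and the 9 tissues (columns), with rows grouped by the level in the tissues. The other lines are dark by the rule, while the tissues differ between the groups of 33, 24, 18 and 15 members.

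The members were not restricted to B7 among the tissues. They fell into 4 groups. In 33 members B7 had 1 CPM or more and the highest level of all 9 tissues. In 24 members B7 had 1 CPM or more but another tissue was higher. In 18 members B7 was below 1 CPM and another tissue reached it, and 15 members were below 1 CPM in all 9 tissues. In bulk samples, fewer cells of a type and less RNA per cell cannot be told apart.

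B7 was the highest tissue for 36 members (40.0%), including 3 that stayed below 1 CPM. This was also the case for 27.7% of the 8895 genes with 10 CPM or more in TCC1506 and for 14.1% of the 24754 genes with a count in any tissue. In 12 members B7 was at least 5 times as high as the next tissue, compared with 0.517% of the genes at 10 CPM or more in TCC1506. On the other hand, 57 members (63.3%) reached 1 CPM in B7, whereas 99% of the genes at 10 CPM or more in TCC1506 did. The 15 members below 1 CPM in all tissues stand beside 0.214% of these genes. Both a level far above the other tissues in B7 and a level below 1 CPM in all tissues were thus counted more often among the members. The comparison is with the genes of TCC1506 at large, without a test. The rule required low levels in lines derived from P2, Ln4.2, Ln4.3 and P6.1, so these shares are not independent of it.

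The 33 members with the highest level in B7 had a median of 54.6 CPM in TCC1506 and of 33.0 CPM in B7. Their level in B7 was between 1.05 and 186 times that of the next tissue, with a median of 4.21. They include MUC13, BCL11A and RAB7B. For the 24 members found in B7 but higher elsewhere, the medians were 26.0 CPM in TCC1506 and 11.2 CPM in B7, and P2 was the highest tissue for 11 of them. The 18 members below 1 CPM in B7 and found elsewhere had a median of 18.2 CPM in TCC1506, and their highest tissue reached between 1.19 and 268 CPM.

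Compared tissue by tissue, the median over the members was 3.72 CPM in B7 and between 0.727 CPM in B8 and 1.92 CPM in Ln4.2 in the others. At least 10 CPM were reached by 35 members in B7, 33 in P2, 30 in Ln4.2 and between 17 and 24 in the remaining tissues. B7 also differed from the other tissues in its marker genes. The 17 paired leukocyte genes summed to 244 CPM in B7 and to between 2027 and 6070 CPM in the other tissues, while the 17 genes of squamous and basal epithelium summed to 4556 CPM in B7 and to between 352 and 3477 CPM in the others. Single genes of the latter list did not all follow its sum. PERP and CDH3 were highest in B7, with 865 and 763 CPM. In contrast, RIPK4 had 6.73 CPM in B7 and 352 CPM in B10, KRT80 had 58.5 and 192 CPM, and TFAP2B was lowest in B7, with 0.449 CPM. The 8 paired genes of the urothelial list, none of them a uroplakin, summed to 717 CPM in B7. This was below 6 of the other tissues, with between 802 CPM in Ln4.2 and 5948 CPM in B9. It was above Ln6.2 and P2, with 77.1 and 81.4 CPM. The part of this makeup in the levels of the members was not tested.

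Levels in TCC1506 and in B7 differed widely between members. The median log2 ratio of TCC1506 to B7, with 0.5 CPM added to both, was 2.82, with quartiles of 0.59 and 4.74, compared with a median of -0.01 over all genes at 10 CPM or more in TCC1506. The rule selects for high levels in TCC1506, so this ratio is a description only. The members within 2-fold of each other in both samples numbered 24. In 44 members TCC1506 was at least 10 times as high as B7, and 17 members were higher in B7 than in TCC1506.

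**Figure D2:**
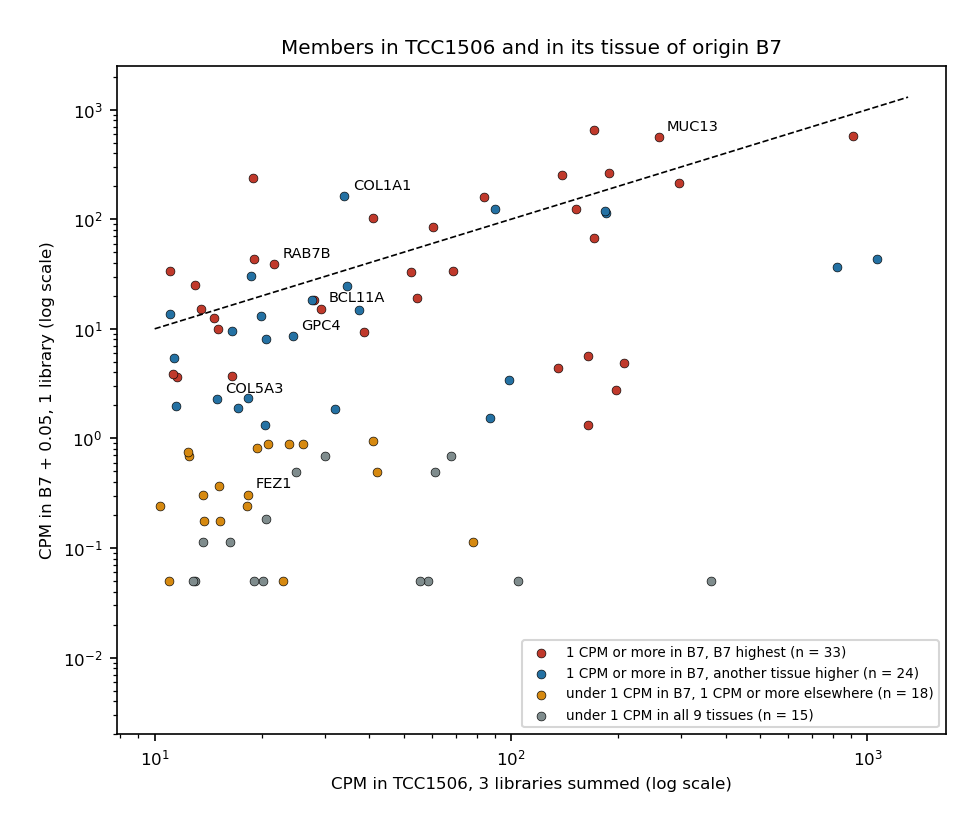
CPM of each of the 90 members in TCC1506 (x axis, 3 libraries summed, log scale) against CPM + 0.05 in B7 (y axis, 1 library, log scale), with a dashed line of equal levels and colors for the 4 groups of tissue levels. Above the line lie 17 members, among them MUC13, COL1A1 and RAB7B, and 10 members lie at the bottom with 0 counts in B7.

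MUC13, the epithelial mucin, was abundant in both. TCC1506 had 387, 134 and 256 CPM in replicates 1, 2 and 3 (259 ± 127, SD, n = 3), and the highest other line, Adcarc1508, had 0.703 CPM. B7 had 559 CPM (95% exact binomial interval 547 to 570.5), and the other tissues ranged from 0.314 CPM in Ln6.2 over a median of 17.1 CPM to 133 CPM in B8. B7 therefore exceeded the next tissue 4.21-fold, and B8, P6.1 and B9, all of them TCC, were next. B10, also a bladder TCC, had 8.89 CPM, below the PAC P2 with 25.4 CPM, and the lowest tissue, Ln6.2, is a metastasis of a TCC. In edgeR's test of B7 against the 8 other tissues, the log2 fold change of MUC13 was 3.88 ± 1.80 (SE) with an adjusted p of 0.313.

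RAB7B, the endosomal GTPase, had the most even levels of the named members, with 23.4, 20.1 and 21.4 CPM in the libraries of TCC1506. It reached 39.0 CPM in B7 and between 1.18 CPM in B9 and 14.95 CPM in P2 in the other tissues, with a median of 3.38 CPM. B7 lay above all of them, with an edgeR log2 fold change of 2.96 ± 1.02 (SE) and an adjusted p of 0.219.

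BCL11A, the transcriptional repressor, had 31.6, 20.9 and 34.4 CPM in TCC1506 and at most 0.0953 CPM in another line. Its level was 15.3 CPM in B7 (95% interval 13.4 to 17.3) and 13.2 CPM in Ln4.3, and these neighbours lay close together. It was 0.503 CPM in the lowest tissue, B8. The 3 bladder TCC samples other than B7 had 0.503, 1.25 and 1.34 CPM.

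Of the members without a symbol, ENSCAFG00000010936 and ENSCAFG00000029537 were the most abundant in B7. ENSCAFG00000010936 had 188, 132 and 189 CPM in TCC1506, 650.0 CPM in B7 and between 6.93 and 45.5 CPM in the other tissues. In the gene ontology (GO) lists published with the study it belongs to cell-matrix adhesion and organization of the extracellular matrix. B7 was 14.3 times as high as the next tissue, P6.1. The edgeR log2 fold change was 4.52 ± 0.58 (SE), with an adjusted p of 0.0528, whereas DESeq2 gave an adjusted p of 1.6e-05. ENSCAFG00000029537 had 705, 522 and 1434 CPM in TCC1506 and 578 CPM in B7. The other tissues ranged from 0.440 CPM in Ln6.2 over a median of 13.3 CPM to 148 CPM in P6.1, with an edgeR adjusted p of 0.271.

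**Figure D3:**
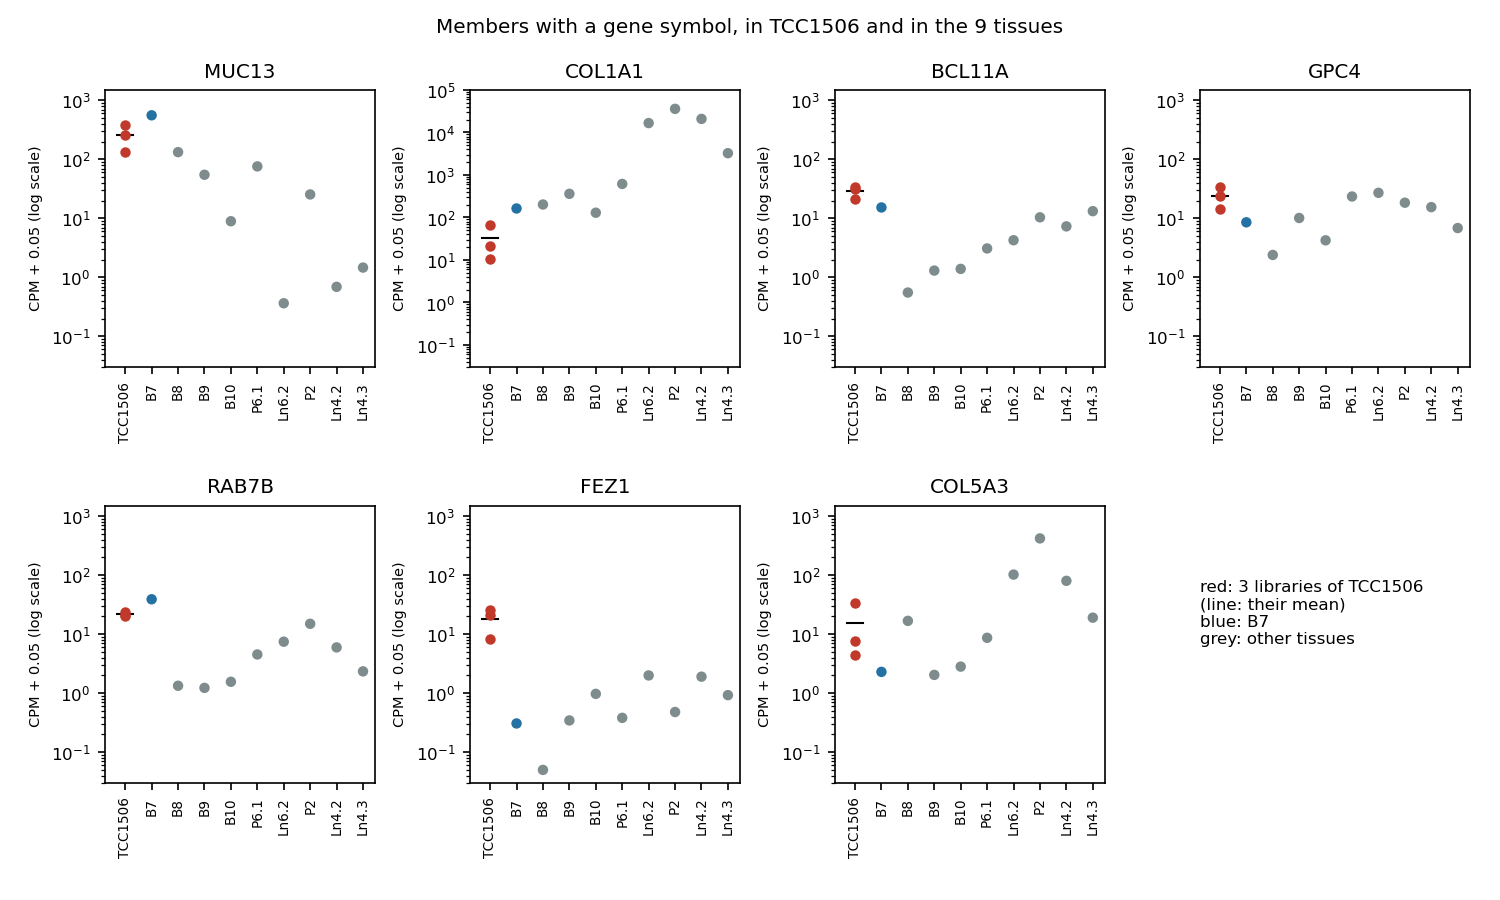
CPM + 0.05 (log scale) of the 7 members with a symbol in the 3 libraries of TCC1506 (red, line at their mean), B7 (blue) and the 8 other tissues (grey). B7 is the highest tissue for MUC13, BCL11A and RAB7B, while COL1A1 and COL5A3 are highest in P2 and low in B7.

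Both collagen genes showed another pattern. COL1A1 had 10.3, 20.8 and 66.8 CPM in the libraries of TCC1506 (32.6 ± 30.1, SD, n = 3), and at most 0.250 CPM in another line. It had 163 CPM in B7, which was the second lowest of the tissues, between 129.5 CPM in B10 and 202 CPM in B8. The highest values were 16667 CPM in Ln6.2, 20906 CPM in Ln4.2 and 36002 CPM in P2. COL5A3 had 34.2, 7.49 and 4.47 CPM in TCC1506, 2.24 CPM in B7, and between 1.99 CPM in B9 and 420 CPM in P2 in the other tissues, with a median of 17.9 CPM.

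The tissues with the highest COL1A1 were also those with the most transcripts of fibroblast genes. Besides COL1A1, 13 of the 18 fibroblast genes were paired, and they summed to between 40104 and 66890.5 CPM in P2, Ln4.2 and Ln6.2, to between 1094 and 7093 CPM in the remaining tissues, and to 1112 CPM in B7. The highest tissue of 29 of the 90 members was P2, Ln4.2 or Ln6.2. This share lay near the 30.5% of the genes with a count in a tissue. It was above the 16.2% of the genes at 10 CPM or more in TCC1506. The part of fibroblasts in these levels was not tested. In TCC1506 itself, 6 of the 13 genes were below 1 CPM. COL1A2, which encodes the partner chain of COL1A1 in type I collagen, had 0.0587, 0 and 0.104 CPM in its libraries, DCN had 0, 0 and 0.0520 CPM, and POSTN was at 0 in all of them. Only COL3A1, a fibrillar collagen gene, and LOX, which encodes a collagen crosslinking enzyme, reached 10 CPM among the 13. COL3A1 had 40.5, 42.0 and 86.9 CPM, and LOX had between 16.4 CPM in replicate 1 and 119 CPM in replicate 2.

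GPC4, the cell surface proteoglycan, had 14.3, 23.5 and 34.2 CPM in TCC1506. Its 8.53 CPM in B7 ranked sixth among the tissues, which ranged from 2.35 CPM in B8 to 27.1 CPM in Ln6.2. FEZ1 was low in every tissue. It had 8.10, 25.3 and 21.0 CPM in TCC1506 but 0.257 CPM in B7, from 4 counts (95% interval 0.0699 to 0.657 CPM), and 0 to 1.95 CPM in the other tissues. TCC1506 was 71.1 times as high as B7.

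The 15 members below 1 CPM in all 9 tissues had between 12.8 and 364 CPM in TCC1506. In 8 of them B7 had 0 counts. The highest was ENSCAFG00000006679, with 242, 397 and 444 CPM in replicates 1, 2 and 3. No read was counted for it in B7, and the other tissues had at most 0.369 CPM, in B9. Against the floor of 3 counts in B7, TCC1506 was 1894-fold higher. This is no strict lower bound, since the 95% interval of 0 counts in B7 reached 0.237 CPM. ENSCAFG00000002896 had 39.0, 40.4 and 219 CPM in TCC1506, 0 counts in B7 and at most 0.0674 CPM in another tissue, in Ln4.3. Against the same floor it was 543-fold higher in TCC1506 than in B7.

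When transcript length was accounted for, as TPM (transcripts per 1000000 transcripts), the order of the members changed. ENSCAFG00000028626 came first with 1871 TPM in TCC1506, followed by ENSCAFG00000006679 with 1261 TPM and ENSCAFG00000016363 with 714 TPM. ENSCAFG00000028626 and ENSCAFG00000016363 were singled out after their values were seen. MUC13 had 130.4 TPM, RAB7B 62.7 TPM, BCL11A 20.04 TPM, FEZ1 14.6 TPM, COL1A1 11.5 TPM, GPC4 8.16 TPM and COL5A3 4.23 TPM. ENSCAFG00000028626, which the GO lists place in the negative regulation of viral genome replication, had 565, 604 and 1235 CPM in the libraries of TCC1506 and 36.7 CPM in B7. It was much higher in the tissues of patient 6, with 5497 CPM in P6.1 and 3868 CPM in Ln6.2, and at most 57.3 CPM in the others. ENSCAFG00000016363, listed under the regulation of cell shape, had 182, 1767 and 1221 CPM in TCC1506, 43.4 CPM in B7 and at most 257 CPM, in Ln4.2, in the other tissues.

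Whether the members were higher in B7 than in the other tissues was tested for all genes with edgeR. The rule had not used the tissues themselves. It had, however, required high levels in the line from B7 and low levels in lines from P2, Ln4.2, Ln4.3 and P6.1. The comparison is therefore not independent of the rule. Of the 90 members, 70 passed the filter of a mean of 0.5 CPM over the tissues. For 6 of these the other 8 tissues had a mean below 0.5 CPM, so that they were tested only because they were high in B7, and their counts below are a description. B7 is a single library, and the spread was estimated from the other 8. With limits of 0.01 for the adjusted p and 2 for the fold change, edgeR called 0 of 15287 genes higher (0%) and 0 lower (0%) in B7, and hence 0 members. At an unadjusted p below 0.05 it found 16 members higher, including these 6, against 7.44% of all genes tested, and 5 lower, against 9.18%. DESeq2 called 6 members higher, 2 of which were tested only through B7, against 1.31% of all genes, and 4 lower, against 3.6%. The 6 called higher had log2 fold changes between 4.54 and 9.62 and the 4 between -9.81 and -5.37. The lowest adjusted p by edgeR, 0.0405, belonged to a member, ENSCAFG00000023511, which is named here after its values were seen and was tested only through its level in B7. It had 73.1, 52.3 and 79.4 CPM in TCC1506, 33.9 CPM in B7 and at most 0.182 CPM in the other tissues. Against the mean of the 8 other tissues, the median log2 ratio over all 90 members was 0.06, with quartiles of -0.95 and 2.48, and that of the genes at 10 CPM or more in TCC1506 was 0.17.

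The rule used the summed libraries of TCC1506, so that a gene could become a member through 1 high library, and the differences between these libraries are given as a description. In 30 members at least 1 library was below 10 CPM, and the rule kept 82, 90 and 80 of the 90 members without replicate 1, 2 and 3. The highest and the lowest library were at least 2-fold apart in 60 members (66.7%), compared with 12.3% of the genes at 10 CPM or more, and at least 5-fold apart in 18 members (20%), compared with 0.933%. The median ratio was 2.45 for the members and 1.40 for these genes, whose median level was 45.5 CPM. All 3 libraries reached 10 CPM in 60 members. Replicate 3 was the highest library for 48 members (53.3%), replicate 1 for 32 (35.6%) and replicate 2 for 10 (11.1%). Among the genes at 10 CPM or more in TCC1506 the shares were 21.4%, 44.6% and 33.9%. Replicates 2 and 3, which are 1 passage apart, differed by a median log2 ratio of 0.58 over the members and of -0.03 over these genes. By the sample numbers in the labels, replicate 3 may belong to another series of libraries than replicates 1 and 2, and its part in this result was not tested. Of the members below 1 CPM in all tissues, 12 of 15 were highest in replicate 3.

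**Figure D4:**
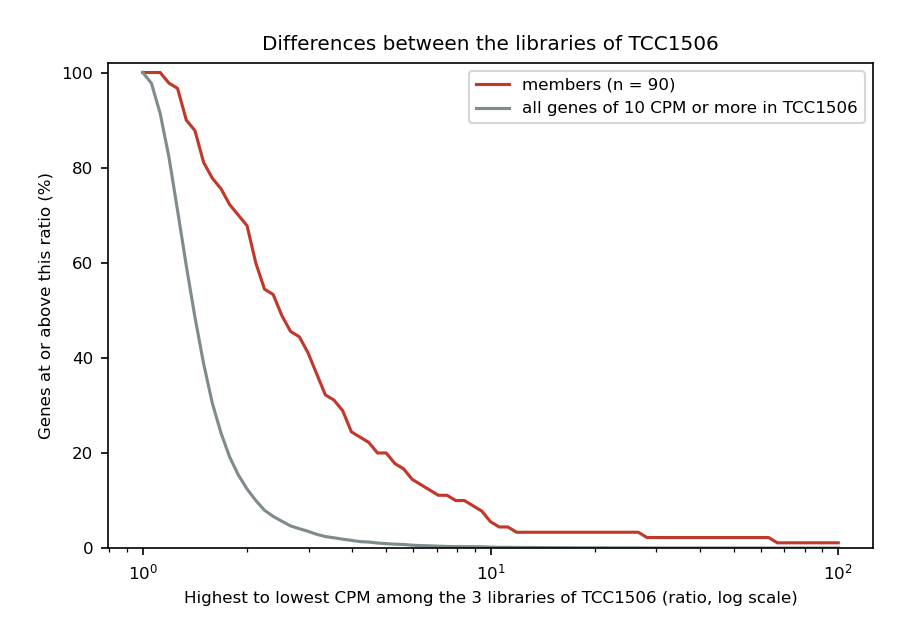
Percentage of genes (y axis) whose highest and lowest library of TCC1506 differ by at least the ratio on the x axis (log scale), for the 90 members (red) and for all genes with 10 CPM or more in TCC1506 (grey). The curve of the members lies above that of all genes, with 66.7% against 12.3% at a ratio of 2.

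Among the members with a symbol, COL1A1 and GPC4 were lowest at passage 98 and highest at passage 107, and the opposite held for COL5A3. ENSCAFG00000006679 and ENSCAFG00000002896 had the same order as COL1A1. Passage 107 is replicate 3, the highest library for most members. The values of replicate 1 against replicates 2 and 3 are also a description, since the rule used these libraries and the other genes passed only a filter on low values. With edgeR this comparison called 0 of 12928 genes higher and 0 lower (0% each) at the same limits. All 90 members were tested. At an unadjusted p below 0.05, 4 members were higher in replicate 1, against 3.06% of all genes, and 17 were lower, against 4.81%. These counts rested on replicate 3. Without it 7 members were higher and 6 lower, and the median log2 fold change over the members was 0.18 rather than -0.31. DESeq2 called 0 members higher, against 0.00774% of all genes, and 1 lower, against 0.317%. That member, ENSCAFG00000010848, named after its values were seen, had 16.1, 61.7 and 82.4 CPM, with an adjusted p of 0.00726 by DESeq2 and of 0.351 by edgeR. In edgeR's test the log2 fold change of replicate 1 was -2.21 ± 0.89 (SE) for COL1A1, with an adjusted p of 0.565. It was -1.08 without replicate 3 and -2.83 without replicate 2. For COL5A3 it was 2.42 ± 0.56 (SE), with an adjusted p of 0.202, and it was 2.12 without replicate 3 and 2.80 without replicate 2.

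In the GO lists published with the study, some of which were shortened and all of which were drawn by the study from genes that changed in its own samples, 11 members were found. Apart from those above, COL1A1 and COL5A3 were listed among matrix and adhesion genes and RAB7B under positive regulation of interleukin-6 production. ENSCAFG00000030180, listed under angiogenesis and response to lipopolysaccharide and picked after its values were seen, had 94.5, 66.4 and 89.96 CPM in TCC1506 and 158 CPM in B7, and its next tissue was Ln4.3 with 107 CPM.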

How the data were processed

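RNA sequencing libraries of 8 canine cell lines (22 libraries) and 9 tumor tissues were used, each sequenced on 4 lanes. Per the study's methods and processing notes, reads were trimmed (Trimmomatic 0.36), mapped to CanFam3.1 (STAR 2.5.3) and assigned to Ensembl genes (RSEM 1.3.0). The authors deposited expected counts per gene and lane, without normalization, of which 17.4% above 0 were not whole. Effective lengths, another column the authors deposited, were used for TPM. Expected counts were summed over lanes and rounded for testing, and CPM are relative to the total of the summed counts. Samples were grouped by their source names, except that the lanes of replicate 1 of Adcarc0846 were assigned by their titles.

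The members and marker lists were chosen with earlier results of these data known. Symbols for 1120 of the 32183 identifiers came from the additional files, a table and the legends of the study. The reference table paired none of the identifiers, so sequences and positions are not given. Members with a symbol are named, and by identifier the 2 highest in B7 and the 2 highest in TCC1506 with B7 below 1 CPM.

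Tests used edgeR 4.0.16 (TMM, quasi-likelihood F test, Benjamini-Hochberg adjustment over all genes tested) in R 4.3.3. This test reports no SE. The SE given with edgeR is the absolute log2 fold change divided by the square root of F. B7 was compared with the 8 other tissues, and replicate 1 with replicates 2 and 3 of TCC1506 in a fit of the 22 cell line libraries with 1 coefficient per line. Genes with a mean of 0.5 CPM or more, over the tissues or over TCC1506, were tested. On simulated counts with a biological coefficient of variation of 0.3, the tissue test recovered 54% of 4-fold and 100% of 16-fold changes, and at 0.7 it recovered 0% and 24%. The passage test recovered 41% and 100% at 0.3, and 0% and 0% at 0.7. In these simulations changes were placed only in genes with a mean of 10 CPM or more, and all genes had the same coefficient of variation. The recovered shares therefore do not describe members at lower levels. Replicates are separate cultures of 1 line, and in the main fit the spread was estimated from the cultures of all 8 lines together. The p-values between replicates thus measure only the spread between cultures of a line. Intervals are exact binomial, and with the floor of 3 counts they cover counting error only. Alternatives were DESeq2 1.42.0, other scalings, filters, pseudocounts, cut-offs and left-out libraries. Tables were joined in pandas 2.3.3 (Python 3.11.15), and intervals were computed in scipy 1.17.1.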

Additional observations from a re-analysis of the deposited data

How the results depend on the processing

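The number of members followed the cut-offs. It was 141 at 5 CPM or more and 55 at 20 CPM or more in TCC1506, and 58 when every library had to lie on its side of the cut-offs, compared with 90. Without a replicate of TCC1506 it was between 82 and 97, and 80 of the 90 members remained without replicate 3. B7 was the highest tissue for between 33 and 36 members under all settings tried. For members higher in B7, DESeq2 called 6 and an adjusted p of 0.05 with edgeR called 1, whereas edgeR called 0 under the other settings, with each of the 8 tissues left out, and with 1 tissue a dog, which was added after the data were seen. For members that differ between replicate 1 and replicates 2 and 3, DESeq2 called 1, the fit without a filter 4 and the fit of the 3 libraries alone 1. The log2 fold change of replicate 1 turned sign without 1 library for 3 named members. It was -0.25 without replicate 2 and 0.53 without replicate 3 for BCL11A, -0.14 and 0.44 for ENSCAFG00000010936, and -1.16 and 0.37 for ENSCAFG00000029537. The cause was not tested. The median log2 ratio of TCC1506 to B7 lay between 2.69 and 2.89 without a replicate and was 2.97 with TMM, which shifts this ratio by 0.17 for every gene. No paired analysis was possible because the tests here compare B7 with tissues of other dogs and the libraries of 1 line with each other, so that no replicate number is shared between the sides. TCC1506 and B7 come from the same dog, but their ratio uses values of the rule and was not tested. A single library of B7 limits every statement on this tissue.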

Other observations

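The member ENSCAFG00000002895 was the one with the second largest difference between libraries, with 7.69, 43.1 and 502 CPM in replicates 1, 2 and 3 of TCC1506, and 2.69 CPM in B7. Among the 16 listed identifiers from ENSCAFG00000002883 to ENSCAFG00000002905, 5 were members, and all 5 were highest in replicate 3, between 2.33 and 65.3 times replicate 1. Except for ENSCAFG00000002895 in B7 and ENSCAFG00000002883, at 1.33 CPM in 1 other tissue, none of the 5 reached 1 CPM in a tissue. Their identifiers are close in number, but no coordinates of this build were used here, so whether these genes lie next to each other was not tested. This run of identifiers was noticed after the values were seen. Of the 11 genes of the run that are no members, 8 had a count in TCC1506, of which 4 were highest in replicate 1, 3 in replicate 2 and 1 in replicate 3. The last was ENSCAFG00000002886, with 3.11, 3.95 and 6.14 CPM.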
